A study of Mus musculus with 6 samples.

Results

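This section concerns 10 genes of the major histocompatibility complex (MHC) class I system, taken by symbol from the 13405 genes listed for each library: the heavy chains H2-K1 and H2-D1, the light chain B2m, the peptide transporter subunits Tap1 and Tap2, the peptide editors Tapbp and Tapbpl, the loading-complex oxidoreductase Pdia3, the trimming peptidase Erap1 and the transactivator Nlrc5. RNA was sequenced from 4T1 cells, a breast cancer line from a Balb/c mouse that was grown in vitro here, in 3 vector control libraries and 3 ATM KO libraries. The control cells carry a vector and the ATM KO cells lack the kinase ATM, which signals DNA double-strand breaks. The labels give no knockout method, do not say whether the knockout cells are 1 clone or a pool, and name no separate cultures behind the libraries, so p-values here rest on the variation from library to library alone, and that may be technical. The series title places ATM loss beside leakage of mitochondrial DNA and the cGAS-STING pathway, which induces interferon, and class I genes are classical interferon targets.

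Class I molecules carry peptides from the cytosol to the cell surface, where CD8 T cells read them. Each is a heavy chain paired with beta-2-microglobulin, and the pair is filled in the endoplasmic reticulum by the peptide-loading complex: the TAP1-TAP2 transporter brings peptides in, tapasin (Tapbp) holds the empty class I molecule at the transporter, ERp57 (Pdia3) is bound to tapasin, and the tapasin-related TAPBPR (Tapbpl) edits peptides outside the complex. ERAP1 trims peptides to length, and NLRC5 is the nuclear factor that, with RFX, CREB/ATF and NF-Y proteins on the promoter, drives transcription of class I genes, B2m and Tap1. NF-kappa-B and interferon regulatory factors act on the same promoters, and tumours with low class I are poorly seen by CD8 T cells.

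Promoter sequences of the group are given first. RefSeq (GRCm38.p6) gave a start site for 7 of the 10 genes; Tap2, Tapbpl and Nlrc5 were not matched. The window searched ran from 250 bases before to 50 after the start, on both strands, for 4 motifs: an ISRE-like motif (GAAA, any 2 bases, GAAA, after the interferon-stimulated response element), an NF-kappa-B-like motif (GGG, any 2 bases, TT, any base, CC), TGACG (the core of the X2/CRE element) and CCAAT (the NF-Y box). None of the matches below overlap one another. The sequences run from 200 bases before the start site through 10 bases of transcript, are those of the reference strain and not of 4T1 cells, and show matches in capitals (a match on the other strand reads as its reverse complement). H2-K1, H2-D1 and B2m are shown for the elements they share, Tap1 because its RNA varied widely among the controls, and Tapbp and Erap1 because they were higher in every ATM KO library.
H2-K1: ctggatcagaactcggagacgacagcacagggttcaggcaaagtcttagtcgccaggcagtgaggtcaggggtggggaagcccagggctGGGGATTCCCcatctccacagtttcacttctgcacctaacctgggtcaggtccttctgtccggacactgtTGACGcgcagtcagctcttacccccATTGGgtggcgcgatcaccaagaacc
H2-D1: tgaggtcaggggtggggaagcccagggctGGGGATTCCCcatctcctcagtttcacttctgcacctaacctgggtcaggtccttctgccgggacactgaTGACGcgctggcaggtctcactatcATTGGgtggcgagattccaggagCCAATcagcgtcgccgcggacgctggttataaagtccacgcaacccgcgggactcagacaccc
B2m: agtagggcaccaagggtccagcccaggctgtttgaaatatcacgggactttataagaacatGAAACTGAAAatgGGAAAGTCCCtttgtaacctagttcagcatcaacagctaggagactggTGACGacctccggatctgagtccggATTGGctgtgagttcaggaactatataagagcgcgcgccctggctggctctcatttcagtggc
Tap1: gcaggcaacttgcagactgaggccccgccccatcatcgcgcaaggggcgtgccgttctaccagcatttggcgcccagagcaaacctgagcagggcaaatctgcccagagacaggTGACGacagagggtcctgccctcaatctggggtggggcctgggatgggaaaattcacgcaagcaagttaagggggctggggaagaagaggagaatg
Tapbp: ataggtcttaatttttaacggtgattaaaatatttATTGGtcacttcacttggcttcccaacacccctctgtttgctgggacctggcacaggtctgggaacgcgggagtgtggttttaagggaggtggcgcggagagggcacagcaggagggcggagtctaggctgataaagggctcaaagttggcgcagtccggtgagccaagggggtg
Erap1: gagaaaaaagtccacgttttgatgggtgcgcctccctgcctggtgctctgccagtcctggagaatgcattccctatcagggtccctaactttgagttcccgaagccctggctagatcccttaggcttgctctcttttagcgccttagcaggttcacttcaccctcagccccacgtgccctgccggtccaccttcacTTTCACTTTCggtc
They lie at chr17:34000338-34000547 (minus strand), chr17:35262894-35263103, chr2:122147487-122147696, chr17:34187356-34187565, chr17:33919278-33919487 and chr13:74639653-74639862, the last 5 on the plus strand. The Tapbp start used by RefSeq lies 3579 bases inside the first annotated GENCODE start of that gene, that of H2-D1 364 and that of Erap1 285.

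H2-K1, H2-D1 and B2m each held an NF-kappa-B-like match, a TGACG and at least 1 CCAAT, a combination found in 0.411% of 32851 RefSeq promoter windows. In H2-K1 and H2-D1 the first of these read GGGGATTCCC, starting at positions -111 and -171 from the start site, with TGACG at -41 and -101. In B2m the ISRE-like GAAACTGAAA, at position -139, stood just upstream of GGGACTTTCC on the other strand. Single motifs were common or rare to different degrees: CCAAT stood in 37.4% of windows, TGACG in 20.8%, the NF-kappa-B-like motif in 4.79% and the ISRE-like motif in 3.44%. Tap1 held TGACG and, upstream of the stretch printed, CCAAT; Tapbp held 2 CCAAT matches (1 of them upstream of the stretch), Pdia3 both CCAAT and TGACG, and Erap1 held an ISRE-like match across its start site. These are matches of letters, not measured binding. The letters were exact, so a window with no ISRE-like match, as in H2-K1 and H2-D1, may still hold a variant of that element.

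**Figure D1:**
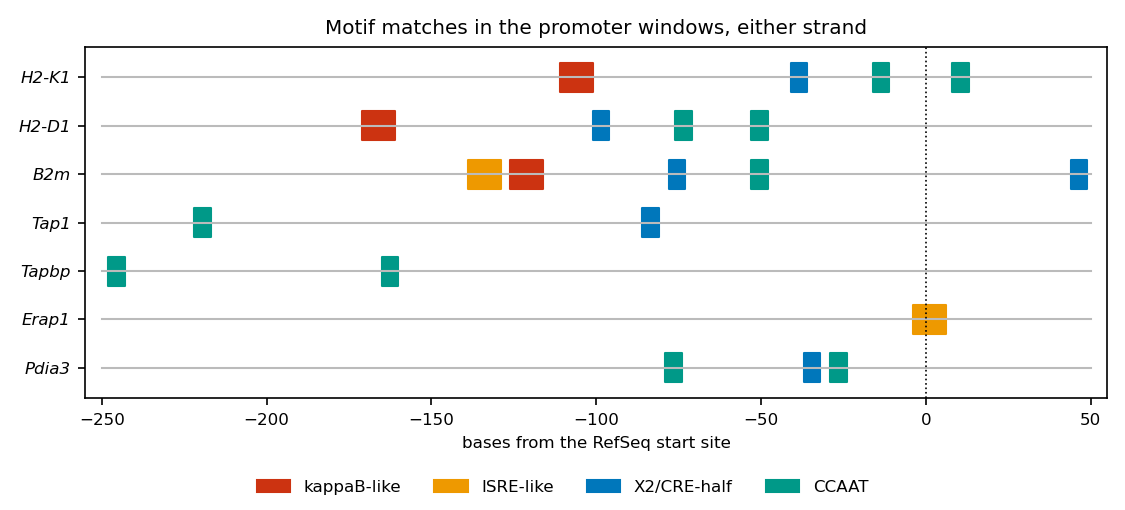
Motif matches in the windows of the 7 genes with a RefSeq start, drawn by distance in bases from the start site (dotted line), with a colour for each motif. H2-K1, H2-D1 and B2m carry the NF-kappa-B-like, X2/CRE-half and CCAAT matches together, and the ISRE-like match, by exact letters, appears in B2m and Erap1.

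The libraries held 22494919 to 32341508 reads on the listed genes, and values below are read counts divided by the authors' factor for each library. Atm mRNA did not mark the knockout: the control mean of 1703 ± 243 and the knockout mean of 1923 ± 316 (SD, n = 3 each) came from overlapping groups, so counts per gene do not check the labels. Of 11 mammary epithelial markers 9 were listed, 8 of them above the low-value filter, and Krt5 was at 0 in every library. Their summed values were 89400 to 126000 in control and 115000 to 160000 in ATM KO libraries, with Krt14 (149.9, 683.9 and 653.5, against 2223, 1369.9 and 2311) and Cldn4 higher in every knockout library. Of 14 leukocyte markers 2 were listed, Cd68 and Csf1r, summing to 529 to 1470 in control and 702 to 1770 in ATM KO libraries. Csf1r was higher in every knockout library, as were Krt14, Cldn4 and 5.7% of all tested genes. Cd68 went the other way, with means of 794 ± 429 in control and 432 ± 324 in ATM KO cells. Its groups overlapped (log2 fold change -0.92, and -1.51 without vector control 1). Of 8 fibroblast markers 3 were listed (146 to 547 and 344 to 754) and of 7 endothelial markers 1 (at most 11.7), and the rest were not analysed here. The part of these cell markers in the results below was not tested. Vector control 1 differed most among the controls: the mean chi-square per gene between recovered reads was 340 and 337 against vector controls 2 and 3, but 16.3 between those 2. The spread ran across both groups: vector control 1 was closest to ATM KO 2 (76.9), and ATM KO 2 stood as far from ATM KO 3 (204) as from vector controls 2 and 3 (192 and 186). Vector control 1 held the lowest of the 6 values for 7 of the 10 genes, against 31.3% of all tested genes, so results for these genes are also given without it. Those results leave vector controls 2 and 3 as the only controls, and these differ less (16.3) than any other 2 libraries (76.9 or more). Intervals, separations and DESeq2 calls without vector control 1 may therefore understate the variation among controls. In bulk RNA, fewer cells that express a gene and less RNA per cell cannot be told apart.

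All 10 genes passed the filter (the 6 libraries averaging at least 10, as in 12149 genes). No gene of the 10, and none of the 12149 (0%), passed the main test, limma on log2(value + 1) with Benjamini-Hochberg adjustment over all tested genes and a threshold of 0.05. By limma 505 genes had an unadjusted p under 0.05, 3 of the 10 among them (Tapbp, Tapbpl and Erap1), all higher in ATM KO cells, as were 2.77% of all tested genes, with 1.39% lower. EdgeR called 0 genes (522 at an unadjusted p under 0.05), and DESeq2 on the recovered reads called 84 genes, 0.56% of those tested as higher and 0.132% as lower. DESeq2 called 2 of the 10, Tapbp and Tapbpl, as higher, and without vector control 1 the same 2 (2.5% of tested genes were then called as higher) and Tap1 as lower (1.98%). Without any one of the other 5 libraries DESeq2 called 0 of the 10. In 4 of the 10 (Tapbp, Tapbpl, Erap1 and Pdia3) all knockout libraries exceeded all controls, which held for 5.7% of tested genes, and in 0 of the 10 the reverse held (5.48%). Without vector control 1 the same 4 stayed apart (19.6% of tested genes). The median log2 fold change of the 10 was 0.50, beside -0.01 over all tested genes, and 0.21 without vector control 1.

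**Figure D2:**
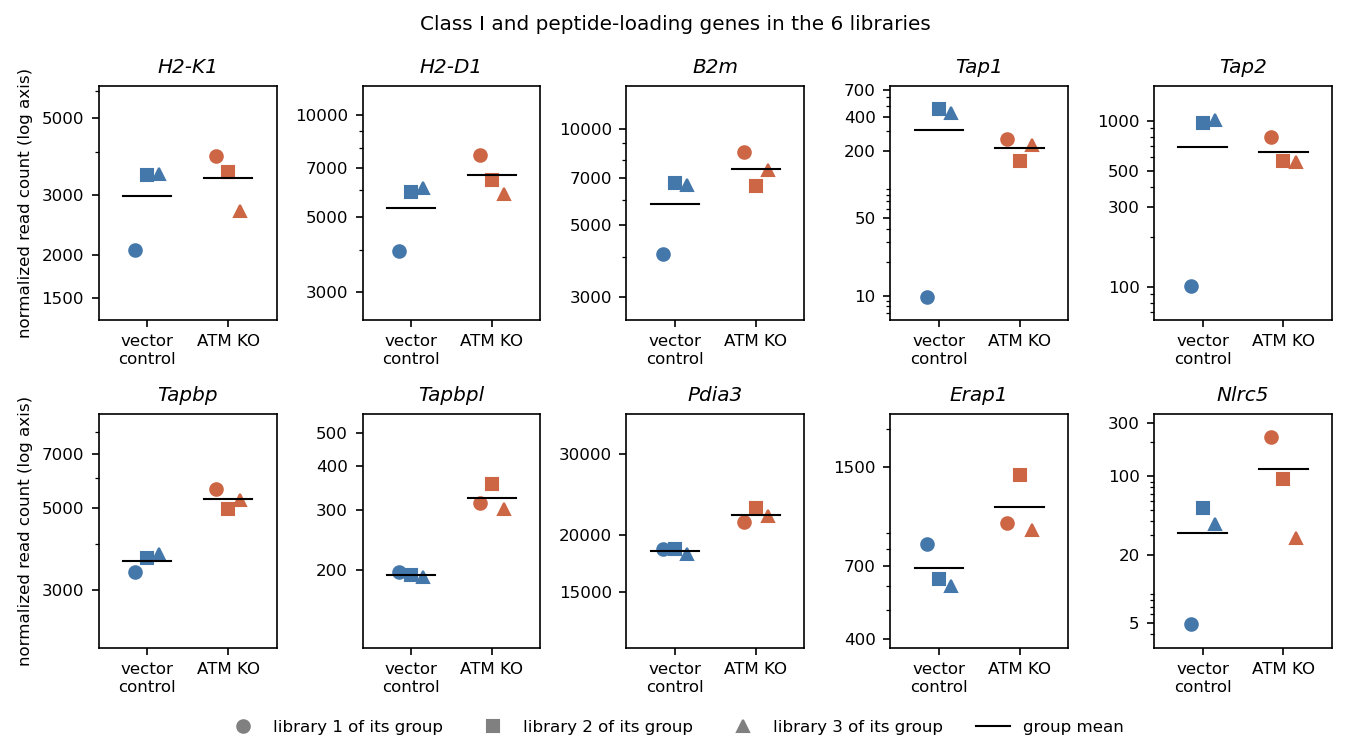
Normalized read counts (log axes, a scale for each gene) in the 3 vector control and 3 ATM KO libraries, with marker shape for the library number and a line for the group mean. Tapbp, Tapbpl, Pdia3 and Erap1 separate the groups, whereas Tap1, Tap2 and Nlrc5 fall far below the other libraries in vector control 1 (9.73, 101 and 4.87).

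The 2 heavy chains and the light chain overlapped between the groups. H2-K1 (ENSMUSG00000061232, chromosome 17, 33996017 to 34000347, minus strand, GRCm38), a classical heavy chain, stood at 2075, 3431 and 3437 in vector controls 1 to 3, and in ATM KO 1 to 3 at 3882, 3495 and 2694. The highest value was that of ATM KO 1 and the lowest that of vector control 1, while ATM KO 3 lay below the other 2 controls. The log2 fold change was 0.19 (SE 0.26, 95% interval -0.43 to 0.82), and -0.05 without vector control 1 (-0.51 to 0.41). H2-D1 (ENSMUSG00000073411, chromosome 17, 35262730 to 35267499, plus strand), the other classical heavy chain, had values of 3969, 5922 and 6086 in the controls, against 7625.5, 6439 and 5845 in ATM KO cells. ATM KO 3 lay below vector controls 2 and 3, and the log2 fold change of 0.33 (SE 0.21) was 0.14 without vector control 1 (95% interval -0.24 to 0.51). B2m (ENSMUSG00000060802, chromosome 2, 122147686 to 122153083, plus strand), which encodes the shared light chain, was measured at 4071, 6757 and 6692 in the controls, against 8483, 6611 and 7448 in ATM KO cells. Here ATM KO 2 lay below both of the higher controls, and the log2 fold change was 0.39 (SE 0.24), or 0.15 without vector control 1 (95% interval -0.20 to 0.51). None of the 3 passed any test (limma adjusted p = 0.999 each), and their intervals without vector control 1 leave room for a rise or a fall.

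In the controls the balance of H2-K1 and B2m RNA was steadier than either level. The ratio of H2-K1 to B2m values was 0.51, 0.508 and 0.514 in vector controls 1 to 3, although the mean of the other 2 was 1.66 times vector control 1 for H2-K1 and 1.65 times for B2m. In ATM KO 1 to 3 the ratio was 0.458, 0.529 and 0.362, so the knockout libraries spread on both sides of the controls. H2-D1 to B2m ratios lay between 0.876 and 0.975 in the controls and between 0.785 and 0.974 in ATM KO cells. Exact permutation tests over the libraries (2-sided, n = 3 each, smallest possible p = 0.1) gave p = 0.4 for H2-K1 to B2m, 0.6 for H2-D1 to B2m and 0.2 for H2-K1 to H2-D1, with adjusted p of 0.8, 0.9 and 0.6 over the 6 ratios computed. These tests used log2 values with 1 added.

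The transporter genes spread widely among the controls, and their direction turned without 1 library and under count models. Tap1 (ENSMUSG00000037321, chromosome 17, 34187553 to 34197225, plus strand) stood at 9.73, 474 and 436 in vector controls 1 to 3, and in ATM KO 1 to 3 at 252, 160.2 and 224. Vector control 1, with 10 reads, was 46.8 times lower than the mean of the other controls, and every ATM KO library lay between it and them. Only 0.255% of tested genes had a wider range among the controls on the log2 scale. The means were 307 ± 258 in control and 212 ± 46.8 in ATM KO cells, lower in the knockout, whereas the fold change of log2 values was positive, 0.68 (SE 1.45, 95% interval -2.81 to 4.17). EdgeR and DESeq2, which model the counts, gave -0.54 and -0.53. Without vector control 1 the log2 fold change was -1.12 (95% interval -1.76 to -0.48), with both remaining controls above all 3 knockout libraries. That interval rests on vector controls 2 and 3, which were close to each other over all genes. With these averaged into 1 library beside vector control 1, limma gave 1.58 (95% interval -2.11 to 5.27).

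Tap2 (ENSMUSG00000024339, chromosome 17, 34203527 to 34216321, plus strand), which encodes the partner subunit, was also lowest in vector control 1 and had higher values than Tap1. It had 101, 973 and 1009.7 in the controls, against 792, 571 and 567 in ATM KO cells, and again the knockout libraries lay between vector control 1 and the other 2. The log2 fold change was 0.45 (SE 0.89) by limma with all libraries, but -0.12 by edgeR and -0.11 by DESeq2, and the group means were 695 ± 514 in control and 643 ± 129 in ATM KO cells. By limma it was -0.64 (95% interval -1.15 to -0.13) without vector control 1. In that comparison of 2 controls with 3 knockout libraries, Tap1 and Tap2 were the 2 of the 10 genes whose groups did not overlap and were lower in ATM KO cells, as were 21.8% of all tested genes. Limma called neither without vector control 1 (adjusted p of 0.24 and 0.289), and DESeq2 called Tap1 (adjusted p = 0.00845, one of 1.98% of tested genes called as lower) but not Tap2 (0.123). Over the 22 alternatives the adjusted p of Tap1 ran from 0.00845 to 1.

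Both transporter genes lie in 1 cluster with the immunoproteasome genes Psmb9 and Psmb8. Psmb9 overlaps the start of Tap1 on the other strand, sharing 212 bases of exon, and Psmb8 lies 496 bases past the end of Tap1. Named here after their values were seen, these neighbours were also lowest in vector control 1, with 0.973 (1 read) for each, against 38.7 and 22.1 (Psmb9) and 8.71 and 15.8 (Psmb8) elsewhere among the controls. In ATM KO 1 to 3 Psmb9 stood at 35.9, 12.7 and 12.8 and Psmb8 at 58.2, 8.49 and 3.84, so both overlapped the controls. The Tap1 to Tap2 ratio was 0.0962 in vector control 1, 0.487 and 0.432 in vector controls 2 and 3; the knockout ratios were 0.317, 0.281 and 0.395 (exact permutation p = 1 over all libraries).

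Tapasin RNA was higher in every ATM KO library. Tapbp (ENSMUSG00000024308, chromosome 17, 33915899 to 33929292, plus strand) stood at 3360.0, 3657 and 3762 in vector controls 1 to 3, and in ATM KO 1 to 3 at 5599.6, 4952 and 5241. The gap between the groups was wider than the spread within either, at 3593 ± 209 against 5264 ± 324 (SD, n = 3 each), a 1.47-fold difference of means. The log2 fold change was 0.55 (SE 0.13, 95% interval 0.24 to 0.86) and 0.50 without vector control 1. The limma p was 0.00477 unadjusted and 0.999 adjusted, and DESeq2 gave an adjusted p of 0.00929. That DESeq2 call held without vector control 1 (0.0135) and was lost without any one of the other libraries (adjusted p between 0.0981 without ATM KO 3 and 1 without vector control 2 or 3), while the log2 fold change stayed between 0.50 and 0.59 over 22 alternatives.

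Tapbpl (ENSMUSG00000038213, chromosome 6, 125223933 to 125231860, minus strand), the tapasin relative outside the MHC, had 198, 193 and 191 in the controls, against 313, 355 and 302 in ATM KO cells. Its controls lay close together, since 98.4% of tested genes had a wider range there, and no knockout library came near them. These 3 values rest on 203, 200 and 182 reads, too few to fix the spread of the gene among controls. The means were 194 ± 3.20 and 324 ± 28.2, a log2 fold change of 0.73 (SE 0.20, 95% interval 0.25 to 1.22), and 0.74 without vector control 1. DESeq2 called it (adjusted p = 0.0239) and limma did not (unadjusted p = 0.00967, adjusted p = 0.999). Without vector control 1 the DESeq2 call held (0.0375), and without each of the other libraries it was lost (adjusted p between 0.0638 without ATM KO 3 and 1 without vector control 2 or 3).

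Pdia3 (ENSMUSG00000027248, chromosome 2, 121413775 to 121438687, plus strand), the disulfide partner of tapasin and a general glycoprotein folding enzyme, separated the groups by a smaller step. It stood at 18612, 18676 and 18218.5 in the controls, against 21330.5, 22938 and 22027.5 in ATM KO cells. The groups did not overlap, with a log2 fold change of 0.26 (SE 0.11, 95% interval -0.02 to 0.53) and the same value without vector control 1. Neither limma (adjusted p = 0.999) nor DESeq2 (0.558) called it. Relative to Pdia3, Tapbp was also higher in each knockout library: the ratio was 0.181, 0.196 and 0.207 in the controls, against 0.263, 0.216 and 0.238 in ATM KO 1 to 3. The exact permutation p of 0.1 is the smallest that 3 against 3 libraries allow, and it was 0.6 after adjustment over the 6 ratios. Tapbp to Tap1 ratios ran from 7.71 to 345 in the controls and from 22.3 to 30.9 in ATM KO cells (exact permutation p = 1).

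Erap1 (ENSMUSG00000021583, chromosome 13, 74639568 to 74693201, plus strand), the aminopeptidase that trims peptides in the endoplasmic reticulum, stood at 832, 634 and 599.9 in the controls, against 976, 1406 and 925 in ATM KO cells. ATM KO 2 was the highest and the groups did not overlap, though vector control 1, here the highest control, came close to ATM KO 3. The means were 689 ± 125 and 1102 ± 264, a log2 fold change of 0.67 (SE 0.24, 95% interval 0.09 to 1.25), and 0.81 without vector control 1. The unadjusted limma p was 0.0298 (adjusted p = 0.999) and the DESeq2 adjusted p 0.48. Cast, which overlaps Erap1 on the other strand and shares 11.5% of its exon bases, overlapped between the groups, at 4614, 4815 and 4914 in the controls, against 4908, 3619 and 6200.5 in ATM KO cells.

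Nlrc5 (ENSMUSG00000074151, chromosome 8, 94434356 to 94527272, plus strand) was low and scattered in both groups. It had 4.87, 52.2 and 37.8 in vector controls 1 to 3, against 224, 95.5 and 28.2 for the knockout libraries, and these rest on between 5 and 262 reads per library. ATM KO 1 held 7.96 times the value of ATM KO 3, and ATM KO 3 lay below vector controls 2 and 3. The log2 fold change of 1.90 had a 95% interval from -0.69 to 4.49, and without vector control 1 it was 0.92 (-1.24 to 3.08). No tool called it (adjusted p = 0.999 by limma, 1 by edgeR and 0.881 by DESeq2). ATM KO 1, the highest library for Nlrc5, was also the highest for H2-K1, H2-D1, B2m and Tapbp, 5 of the 10 genes, against 8.72% of all tested genes.

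**Figure D3:**
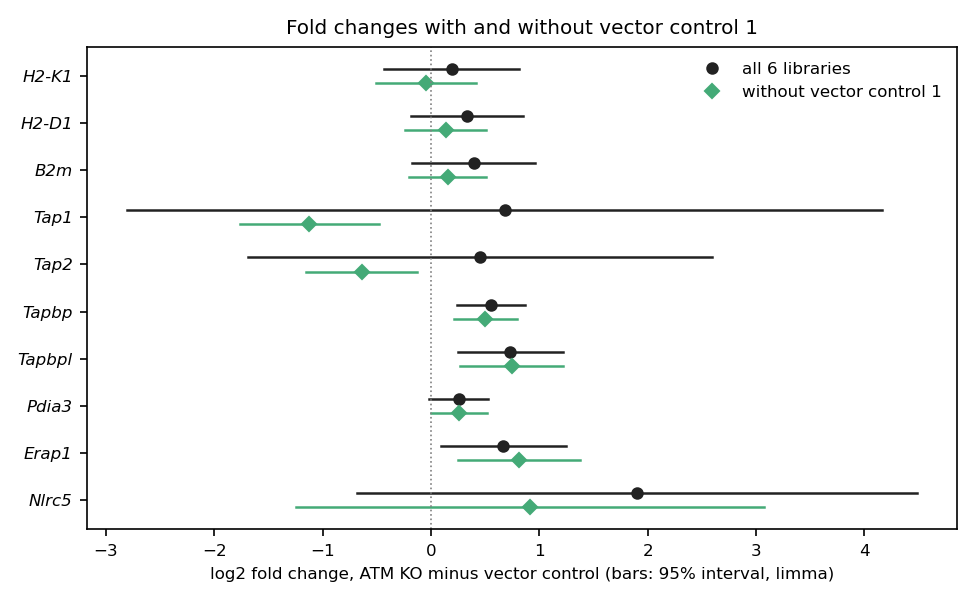
Log2 fold changes (ATM KO minus vector control) of the 10 genes with 95% intervals from limma, for all 6 libraries (circles) and without vector control 1 (diamonds). Tap1 and Tap2 change sign without that library (0.68 to -1.12 and 0.45 to -0.64), H2-K1 moves from 0.19 to -0.05, and Tapbp, Tapbpl, Erap1 and Pdia3 keep their place.

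Per length of exon, light chain RNA was the most abundant of the 10 and Nlrc5 the least. In control cells B2m had 6791 ± 1782 normalized counts per kb and Pdia3 5894 ± 78.9, and these neighbours in the order did not differ beyond their spread. H2-D1 followed with 2065 ± 457, then H2-K1 with 1015 ± 267 and Tapbp with 990.4 ± 57.5, which again lay within each other's spread. Tap2 stood at 184 ± 136, Erap1 at 94.6 ± 17.2, Tapbpl at 82.5 ± 1.36 and Tap1 at 56.0 ± 47.1 counts per kb. The ranges of Tap2, Erap1, Tapbpl and Tap1 overlapped one another. Nlrc5 had 3.73 ± 2.86. In ATM KO cells tapasin, at 1451 ± 89.4 per kb, lay above H2-K1, at 1143 ± 206, in mean and in every library (lowest 1365 against a highest of 1321). Neither count was corrected for sequence shared with other genes or for the Balb/c alleles, limits that are given below. The length was that of all annotated exons of a gene merged (2938 bases for H2-K1, 3628 for Tapbp), not that of the transcripts expressed. The order of genes with close values may depend on that choice, which was not tested.

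**Figure D4:**
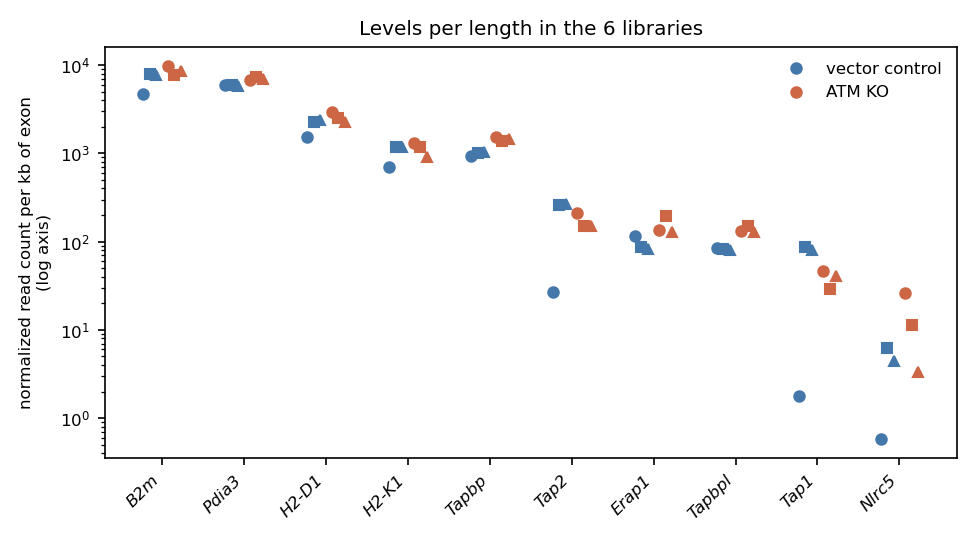
Normalized read count per kb of annotated exon (log axis) in each library, with genes ordered by the control mean, colour for the group and circles, squares and triangles for libraries 1, 2 and 3. Levels fall from B2m and Pdia3 to Nlrc5, and the lone low control points of Tap1, Tap2 and Nlrc5 are vector control 1.

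How firmly these counts belong to their genes differed. No 50-base word of B2m transcripts occurred in another gene's transcripts, and 0.03% of those of Pdia3 did. For H2-K1 and H2-D1 the share was 9.63% and 12.8%, most with H2-Q10 (5.18%) and H2-Q1 (5.87%), so reads can be lost or shared among class I copies. The reference strain carries another H2 haplotype than Balb/c mice, and how reads of Balb/c alleles were placed was not tested. Tapbp shared 23.2% of its words with other genes, chiefly the antisense Gm19412 (not analysed here), and Tap2 shared 11.6%. The sources used here do not state whether reads were counted by strand, so reads of a gene and an antisense partner cannot be told apart.

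Other genes of the pathway, read from the same fit, gave no limma call in any of the 7 lists (0). Of 16 tested other class I heavy chain genes, the H2-Q, H2-T and H2-M genes with Mr1 and Hfe, 14 had positive fold changes, with a median of 0.24, but none separated the groups. In 13 of the 16 vector control 1 was lowest, and without it the median was -0.07 with 6 positive. The most abundant, H2-T23, which encodes the Qa-1 molecule read by NKG2A, had values of 495, 1450.1 and 1408 in the controls, against 1253, 803 and 1482 in ATM KO cells. H2-Q4 stood at 608, 1129.9 and 1044 and at 1292, 1087 and 1303. The groups overlapped for both genes.

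Of the 5 immunoproteasome and PA28 genes, all had positive fold changes (median 0.54, and 0.16 without vector control 1). Psme1 and Psme2, the 2 subunits of the PA28 proteasome activator, were higher in every knockout library, as were 5.7% of all tested genes (19.6% without vector control 1). Psme1 had 724, 1335 and 1322 in the controls, against 1463, 1581 and 1408 in ATM KO cells (log2 0.45, SE 0.27, and 0.16 without vector control 1). Psme2 had 261, 381 and 372 against 508, 475 and 476 (log2 0.54, SE 0.22, and 0.37 without vector control 1). Neither passed DESeq2 (adjusted p of 1 and 0.62). The 6 constitutive catalytic subunits and other activators had a median of -0.05 (0.13 without vector control 1) with 0 genes separating the groups, and the most abundant, Psme3 and Psme4, had log2 fold changes of 0.05 and -0.10.

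Most genes of a list of chaperones and quality control of the endoplasmic reticulum, which includes Sec61 subunits, did not have the positive sign of Pdia3. Of 21 tested, 5 were positive and 16 negative, with a median of -0.06, and of -0.09 without vector control 1 (9 positive, 12 negative). Canx, the calnexin that holds new heavy chains, was lower in every knockout library, at 28854, 26929.6 and 26111 in the controls, against 23379, 26043 and 19234 in ATM KO cells (log2 -0.26, SE 0.15, and -0.22 without vector control 1). P4hb, a protein disulfide isomerase, was also lower, at 32614 ± 5943 against 23251 ± 1746 (log2 -0.47, SE 0.18, and -0.64 without vector control 1). Syvn1, a ubiquitin ligase of the endoplasmic reticulum, was higher in each (log2 0.18, SE 0.16). In all, 2 of the 21 were lower and 1 was higher in every knockout library, against 5.48% and 5.7% of all tested genes. Without vector control 1, 9 were lower and 2 higher, against 21.8% and 19.6%. No gene of this list passed DESeq2 (0).

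Among 20 transcription factors and chromatin regulators of class I genes, 13 were positive and the median was 0.09 (0.02 without vector control 1). Irf1, the interferon regulatory factor that binds class I promoters, was the 1 of the 20 that was higher in every knockout library (5.7% of all tested genes were), with 517, 1614 and 1710.5 in the controls, against 2875.5, 1984 and 1918 in ATM KO cells. Its log2 fold change was 0.98 (SE 0.49, DESeq2 adjusted p = 1), and 0.42 without vector control 1, which held the lowest value. The 10 cytosolic and endosomal peptidases had a median of -0.16 (-0.01 without vector control 1), none separated the groups, and the most abundant, Lnpep and Tpp2, had log2 fold changes of -0.22 and -0.09. Of 10 tested genes of class I surface turnover 8 were positive (median 0.10, and -0.08 without vector control 1). Ap1g1, an adaptor subunit of vesicle transport, was lower in each knockout library (log2 -0.13, SE 0.13), as were 5.48% of all tested genes. It had 5050, 5058 and 5012 in the controls, against 4371, 4493 and 5009 in ATM KO cells, so ATM KO 3 nearly met vector control 3.

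**Figure D5:**
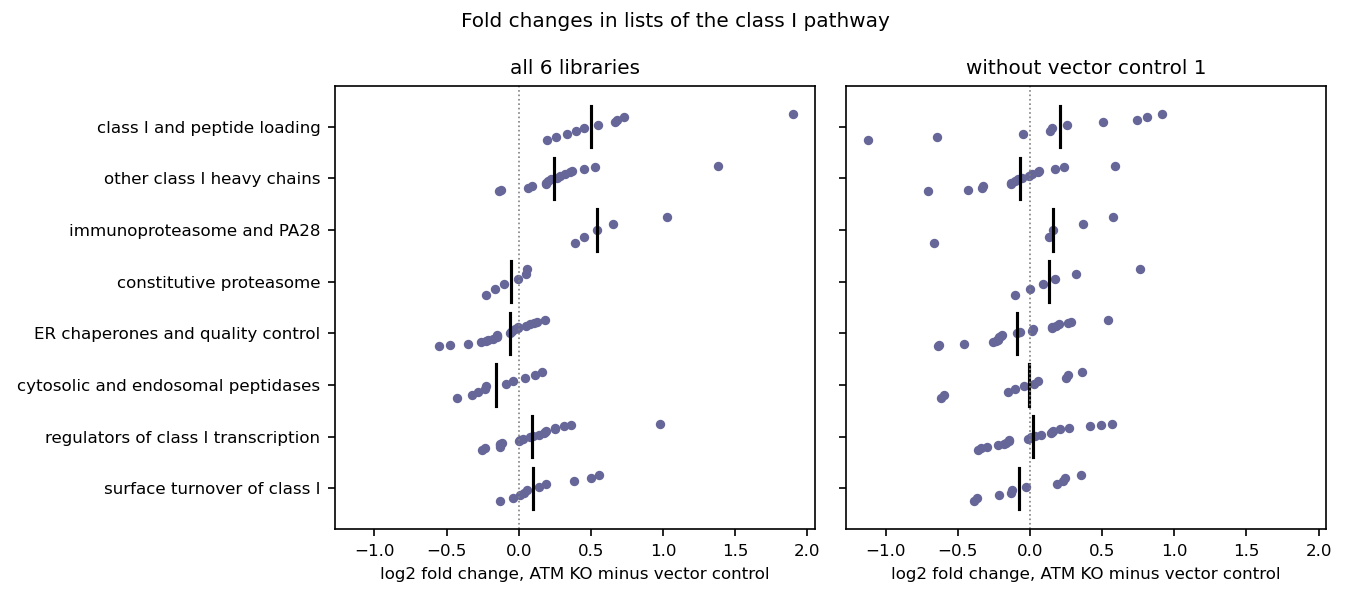
Log2 fold changes of the tested genes of the 10-gene group and of 7 other lists of the class I pathway, with a point for each gene and a line at the median, for all libraries (left) and without vector control 1 (right). The medians of the class I heavy chains (0.24 to -0.07) and of the immunoproteasome and PA28 genes (0.54 to 0.16) are lower without that library.

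Genes beside the 10 on the chromosome were read from the same fit. Of 34 tested neighbours within 50 kb that are not themselves members, 1 was higher and 2 were lower in every knockout library (5.7% and 5.48% of all tested genes), with a median of -0.01. They were Col11a2 (log2 1.19) and Ring1 (log2 -0.24) near H2-K1, and Herpud1 (log2 -0.56) near Nlrc5. Zbtb22, which shares 149 bases of exon with Tapbp on the same strand, had a log2 fold change of -0.04. Class II genes were sparse: H2-DMa, the peptide editor of class II, stood at 56.0 ± 21.6 and 105 ± 26.5 and Cd74, the invariant chain, at 14.8 ± 8.26 and 16.4 ± 14.1, in overlapping groups. Summed values of the 3 class II and antigen-presenting-cell markers listed were 54.6 to 105 in control and 92.3 to 165 in ATM KO libraries, and their part in the results above was not tested.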

How the data were processed

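Tools named in the submitters' processing notes, with no version or role, are STAR, HTSeq, DESeq2, SAMtools, cutadapt and Trim Galore, beside the builds GRCm38 and mm9. Each deposited file holds a normalized signal: the values show whole reads per gene scaled with a single divisor for a library, since all of them (100%) gave whole reads within 0.01. No source used here states how the 13405 genes were chosen. Of their IDs 13249 are in GENCODE M21, which gave coordinates and exon lengths.

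Groups were compared with limma 3.58.1 under R 4.3.3 (log2(value + 1), mean-variance trend, 2-sided, no covariates) on 12149 genes with a mean of at least 10, adjusted over all of them. EdgeR 4.0.16 (quasi-likelihood) and DESeq2 1.42.0 on recovered reads were alternatives. Others varied the pseudocount, filter, scaling, replicate block and left-out libraries, or averaged vector controls 2 and 3. Leaving out libraries under edgeR and DESeq2 was chosen after seeing the data. Counts for the 12149 genes were also simulated with the dispersion estimated for each gene, drawn independently from gene to gene. Limma recovered 3% of 2-fold and 45% of 4-fold changes, and DESeq2 37% and 81% while calling 58 unchanged genes. No simulated library deviated over many genes at once, as vector control 1 did, so these shares may not hold for the real libraries. The members and lists were chosen with earlier results of these data known, so no p was adjusted over them alone and no set test was run. Other lists were named by every gene past the threshold, else up to 4 with groups that did not overlap, else the 2 with the highest mean.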

Additional observations from a re-analysis of the deposited data

How the results depend on the processing

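Genes past the threshold numbered 0 under limma and edgeR in every setting, 84 under DESeq2, 544 under DESeq2 without vector control 1, and 17, 22, 31, 91 and 74 under DESeq2 without vector control 2, vector control 3, ATM KO 1, ATM KO 2 and ATM KO 3. Of the 10 genes, 0 passed limma, 2 passed DESeq2 and 3 (Tap1 added) DESeq2 without vector control 1, with 0 under DESeq2 without any other library. Their median log2 fold change ran from 0.21 to 0.59 as limma left out each library, and was 0.23 by edgeR and 0.21 by DESeq2 without vector control 1. H2-K1 ran from -0.0493 to 0.34, Tap1 from -1.12 to 1.61 and Tap2 from -0.64 to 1.01 by limma. Without vector control 1, H2-K1 was -0.0143 by edgeR and -0.0289 by DESeq2, Tap1 -1.09 and -1.10, and Tap2 -0.61 and -0.62. With all libraries Tap1 was -0.54 by edgeR and -0.53 by DESeq2, and Tap2 -0.12 and -0.11. By DESeq2 Tap1 was -0.0704, -0.19, -0.66, -0.37 and -0.57 without vector control 2, vector control 3, ATM KO 1, ATM KO 2 and ATM KO 3, and Tap2 0.21, 0.26, -0.28, -0.0343 and -0.0223 in the same order. On CPM Nlrc5 was 1.13 and Pdia3 0.29. The group difference in the log2 ratio of Tap1 to Tap2 was 0.23, but -0.18 on CPM and -0.48 to 0.63 with a library left out. That of Tapbp to Tap1 was -0.13, but 0.36 and -1.05 to 1.63, and that of H2-D1 to B2m -0.06 and -0.13 to 0.0254. A ratio within a library does not depend on the scaling of that library. The changes of these ratios on CPM therefore come from the 1 added before taking log2, which weighs more on the smaller CPM values. Log2 fold changes of single genes on CPM, such as that of Nlrc5, also used values with 1 added. The cause of the other differences was not tested. The other 7 genes kept their direction in all 22 alternatives. The labels do not say whether replicate numbers pair the libraries (correlations of deviations of -0.02, -0.58 and 0.53 for numbers 1 to 3). Vector controls 2 and 3 had nearly equal correlations with ATM KO 2 (-0.582 and -0.591) and with ATM KO 3 (0.533 and 0.528). These correlations therefore cannot tell whether libraries 2 and 3 are paired by number. With a replicate block limma called 0 genes, 296 had an unadjusted p under 0.05, and that of Tapbp was 0.034, against 0.00477 without it. The block cannot change a fold change in this balanced design (Tapbp 0.55). The settings without 1 library leave 2 libraries in a group. The smallest counts behind a value were 5 reads for Nlrc5 and 10 for Tap1, both in vector control 1.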
